A study of Mus musculus with 6 samples.

Results

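NADPH is the electron donor that cells spend on glutathione and thioredoxin reduction and on the synthesis of lipids, proline and deoxynucleotides. Messenger RNA of 9 mouse enzymes that make it, or that belong to the pathway that makes it, was followed here by gene symbol. They are G6pdx, Pgls and Pgd of the oxidative branch of the pentose phosphate pathway, Rpia, Tkt and Taldo1 of its non-oxidative branch, the malic enzyme genes Me1 and Me2, and Idh1, the cytosolic NADP-dependent isocitrate dehydrogenase. All 9 had a row among the 18288 genes of the deposited table. The samples were mouse CD8+ T cells activated in culture and collected on day 2, in 3 libraries labelled Nae1T-KO and 3 labelled Nae1WT. Nae1 encodes the regulatory subunit of the enzyme that activates NEDD8, a ubiquitin-like protein attached to cullins and other targets, and the name Nae1T-KO is taken to mean a loss of Nae1 in T cells. The labels name neither the Cre driver nor the deleted exons, strain, age or sex, and they give no treatment that sets the groups apart. They call the replicates biological without saying whether each came from its own mouse.

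Libraries held about 15628000 to 25445000 reads assigned to genes. Values are normalized counts, which are reads divided by 1 size factor per library. The targeted gene, Nae1, had 390.3, 338 and 367 normalized counts in Nae1T-KO cells, against 1601, 1806 and 1882 in Nae1WT cells. Nae1T-KO replicates 1 and 2 and Nae1WT replicate 3 expressed Xist, and the other 3 expressed Y-linked genes, so sex was not balanced between the groups and differences between libraries of the same sex are given where they matter. Cd8a and Cd8b1 encode the CD8 chains, while Cd3e and Cd3d encode CD3 chains common to T cells. These genes had 1983 to 7654 normalized counts in every Nae1T-KO library and 1914 to 8186 in every Nae1WT library. Markers of 5 other cell classes were summed in each library. The sum of 7 B cell markers was 201, 538 and 260 normalized counts in Nae1T-KO, with 233, 226 and 349 in Nae1WT. The sum of 7 erythroid markers was 393, 2091 and 222 in Nae1T-KO, with 188, 362 and 683 in Nae1WT. Nae1T-KO replicate 2 had the highest sum of each, and its erythroid sum was near its level of Cd3e, at 2062. The sum of 7 myeloid and dendritic markers in the table (9 listed) was 122, 182 and 162 in Nae1T-KO, with 78.6, 62.7 and 79.9 in Nae1WT, so that no Nae1WT library reached a Nae1T-KO one. Among them Xcr1 alone of 3 tested passed (log2 fold change 1.75, limma adjusted p = 0.0350). It had 10.1, 17.6 and 15.1 normalized counts in Nae1T-KO and 4.91, 2.09 and 3.81 in Nae1WT. Testing required at least 10 in at least 3 libraries, which Xcr1 reached only through the 3 Nae1T-KO libraries where it was high. With 4, 2 and 5 reads in Nae1WT it was near the floor, so its call is no independent support. Among the 5 measured genes listed as CD8 T cell markers only Cd3g, another CD3 chain gene, passed, and it was lower (-0.51, limma adjusted p = 0.00365). The sum of 4 CD4 T cell markers was 126, 273 and 203 in Nae1T-KO, with 212, 110 and 135 in Nae1WT. The sum of 2 NK and gamma-delta T cell markers in the table (5 listed) was 16.8, 9.69 and 26.3 in Nae1T-KO, with 25.8, 16.7 and 21.3 in Nae1WT. The part of such cells in the results below was not tested.

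In the oxidative branch, glucose-6-phosphate dehydrogenase (G6pdx) takes the first and rate-limiting step and makes NADPH. Phosphogluconolactonase (Pgls) then opens the lactone, and 6-phosphogluconate dehydrogenase (Pgd) makes NADPH again and releases ribulose 5-phosphate. The non-oxidative branch interconverts sugar phosphates without making NADPH. Ribose 5-phosphate isomerase (Rpia) supplies ribose for nucleotides, and transketolase (Tkt) and transaldolase (Taldo1) return carbon to glycolysis. Malic enzymes turn malate into pyruvate, Me1 in the cytosol with NADP and Me2 in mitochondria, where it mainly uses NAD. In activated T cells, which grow and divide quickly, these routes are known to supply both reducing power and nucleotide precursors. Several of the genes, among them G6pdx, Pgd, Tkt, Taldo1, Me1 and Idh1, are known to be switched on by NRF2, which drives the antioxidant response and whose protein is degraded through cullin 3 ligases that depend on NEDD8.

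The enzymes did not move as a block. Of 8 members tested, G6pdx and Taldo1 were higher in Nae1T-KO, Pgls was lower, and Pgd, Rpia, Tkt, Me2 and Idh1 did not pass the threshold. Me1 was too low to be tested. Called genes are those with a Benjamini-Hochberg adjusted p under 0.05 over all 13819 genes tested (limma, two-sided). By that rule 12.7% of all tested genes were called, 6.53% higher and 6.18% lower, and 3 of 8 members. The median log2 fold change of the 8 was -0.02, and that of all tested genes was -0.01. The 2 groups did not overlap for 4 of the 8 members, G6pdx, Pgls, Taldo1 and Tkt, where 33.7% of all tested genes did not overlap. Fewer cells with a transcript and less of it per cell cannot be told apart in such bulk samples.

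**Figure D1:**
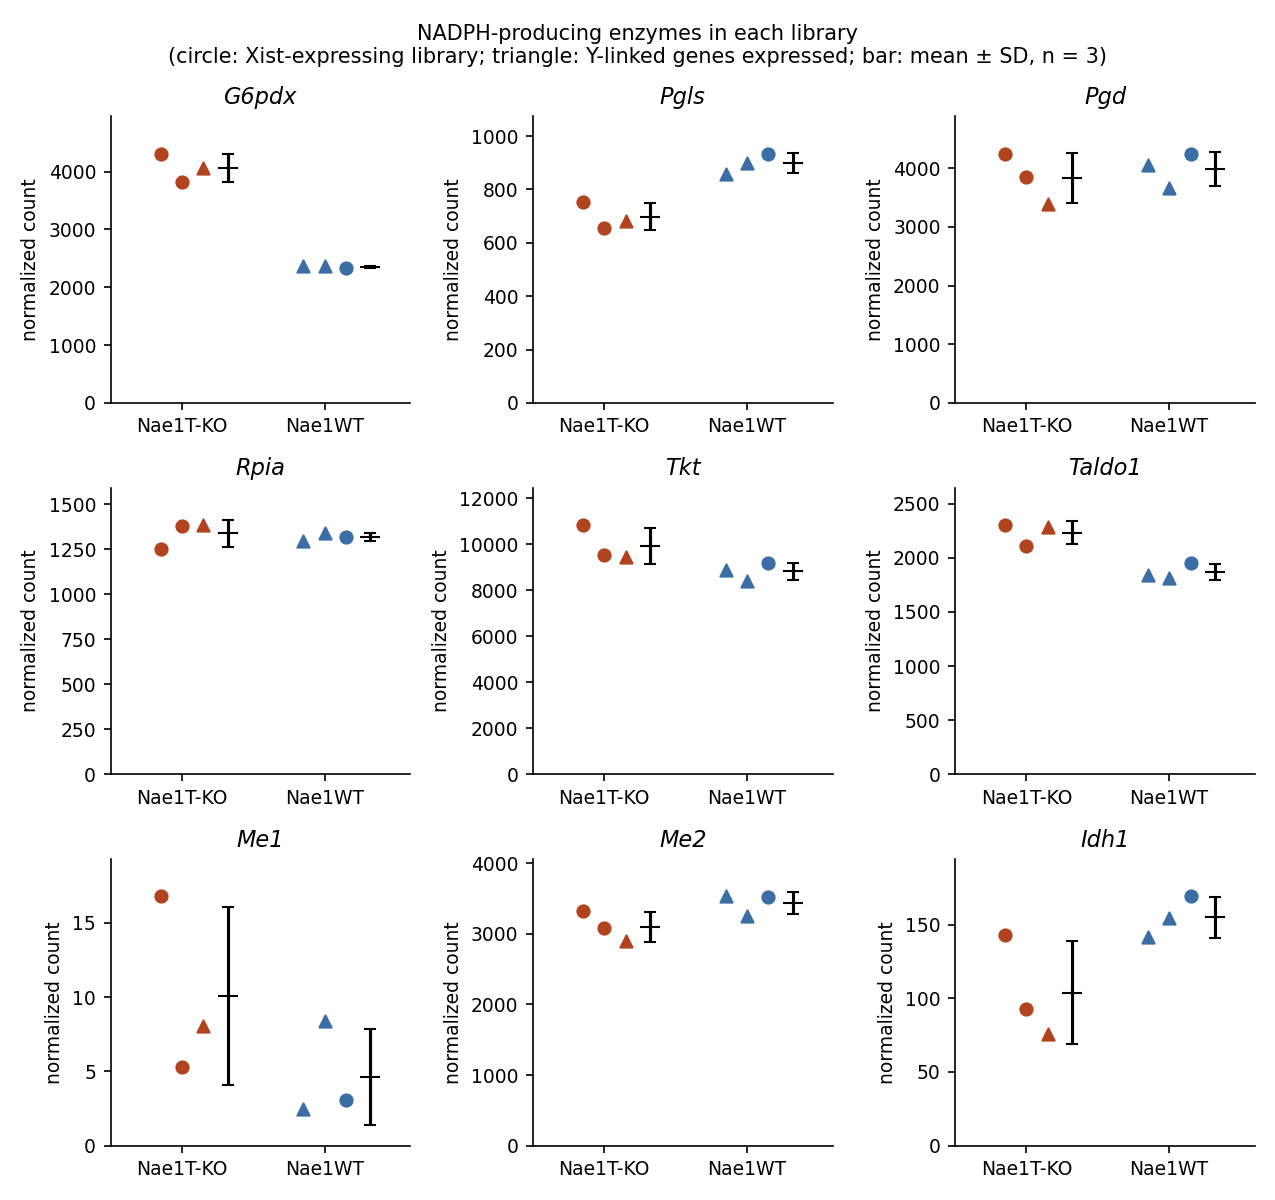
Normalized counts (vertical axis, from 0) of the 9 enzymes in each of 3 Nae1T-KO and 3 Nae1WT libraries, with mean and SD beside the points; circles are libraries that express Xist and triangles those that express Y-linked genes. G6pdx lies between 3821 and 4312 in Nae1T-KO, above 2329 to 2372 in Nae1WT, while Pgd and Rpia overlap.

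G6pdx carried the largest change past the threshold. It had 4312, 3821 and 4055 normalized counts in Nae1T-KO cells, against 2372, 2361 and 2329 in Nae1WT cells. Every Nae1T-KO library was above every Nae1WT library, and the 3 Nae1WT libraries were close together. The means were 4063 ± 245 in Nae1T-KO and 2354 ± 22.5 in Nae1WT (SD, n = 3 each), coefficients of variation of 6.04% and 0.957%. On the log2 scale the change was 0.79 ± 0.07 (SE, 95% confidence interval, CI, 0.64 to 0.93, limma adjusted p = 0.000161), a level 1.72-fold higher in Nae1T-KO. By its p-value G6pdx ranked 19 among all 13819 genes, and by the size of its change it ranked 914. Behind these values stood 3855 to 4336 reads in each Nae1T-KO library, and 1932 to 3059 in each Nae1WT library.

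G6pdx lies on the X chromosome from 74409483 to 74428880 in GRCm38 (mm10). Between libraries of the same sex its log2 difference was 0.80 in Xist-expressing libraries and 0.78 in those expressing Y-linked genes, with 0.71 to 0.89 over the 4 possible pairs. The sex by genotype term, the second of these effects minus the first, was -0.02 (limma). In Nae1T-KO only replicate 3 expressed Y-linked genes, and in Nae1WT only replicate 3 expressed Xist. The 4 pairs share these libraries, so a test of that term could detect little. Without Nae1T-KO replicate 2, where the B cell and erythroid markers were highest, the log2 fold change was 0.83 (limma, adjusted p = 0.000412). G6pdx passed the threshold in every alternative but a test against a 1.5-fold change (adjusted p = 0.516), so a difference was detected but one beyond 1.5-fold was not. Its span lies within that of Ikbkg, which encodes the NF-kB regulator NEMO, and the counting of reads in such overlaps is not given in the sources used here. Ikbkg had 762, 868 and 866 normalized counts in Nae1T-KO cells and 774, 897 and 895 in Nae1WT, which is a log2 change of -0.04 (limma, adjusted p = 0.822).

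The G6pdx start site is shown with its upstream sequence because it holds a match to the core of the antioxidant response element, the site that NRF2 binds with small MAF proteins. The core was searched on both strands as TGACNNNGC in the 300 bases from 250 before to 50 after each start (RefSeq, GRCm38.p6). It was found in 12.4% of all 32851 such windows, and in 3 of 11 windows of the 8 members whose promoters were read. Me1 also held a match, and its window is shown for comparison, together with those of the other called members, Taldo1 and Pgls, which had none. All 4 are 5′ to 3′ on the strand of the gene, with matches in capitals.
G6pdx, chrX:74428831-74429130, minus strand: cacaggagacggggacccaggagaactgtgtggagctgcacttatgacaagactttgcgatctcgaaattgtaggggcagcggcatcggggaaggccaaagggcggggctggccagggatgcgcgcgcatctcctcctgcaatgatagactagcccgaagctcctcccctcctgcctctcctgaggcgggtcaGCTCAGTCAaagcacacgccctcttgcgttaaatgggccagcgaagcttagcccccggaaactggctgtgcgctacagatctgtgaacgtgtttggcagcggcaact
Me1, chr9:86695865-86696164, minus strand: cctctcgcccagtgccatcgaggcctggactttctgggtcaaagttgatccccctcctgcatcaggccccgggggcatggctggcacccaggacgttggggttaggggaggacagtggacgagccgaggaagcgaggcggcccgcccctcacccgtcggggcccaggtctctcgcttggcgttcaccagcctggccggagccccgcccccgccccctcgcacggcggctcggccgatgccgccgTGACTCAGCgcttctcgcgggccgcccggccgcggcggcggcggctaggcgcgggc
Taldo1, chr7:141391910-141392209, plus strand: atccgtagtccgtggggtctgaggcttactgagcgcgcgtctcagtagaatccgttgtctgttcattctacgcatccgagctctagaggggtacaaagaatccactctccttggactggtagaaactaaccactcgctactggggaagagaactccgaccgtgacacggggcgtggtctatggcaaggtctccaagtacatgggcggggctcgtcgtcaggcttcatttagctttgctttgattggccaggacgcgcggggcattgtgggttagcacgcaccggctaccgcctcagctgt
Pgls, chr8:71591934-71592233, plus strand: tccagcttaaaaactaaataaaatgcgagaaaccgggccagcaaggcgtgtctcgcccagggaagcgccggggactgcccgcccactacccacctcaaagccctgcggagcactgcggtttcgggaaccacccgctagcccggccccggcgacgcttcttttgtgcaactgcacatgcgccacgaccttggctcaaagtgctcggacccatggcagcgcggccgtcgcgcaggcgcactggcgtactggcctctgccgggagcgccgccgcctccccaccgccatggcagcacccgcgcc
In G6pdx the match lay on the opposite strand, its leftmost base 57 bases before the start, and read there as TGACTGAGC. In Me1 it read TGACTCAGC on the strand of the gene from 6 bases before the start, and overlapped the AP-1 site TGACTCA, which 5.2% of all windows held. A match is a description of the letters and does not show binding. The third match, TGACATTGC, was in the downstream of the 2 windows of Pgd and not in the upstream one. No member window held the E-box CACGTG, which 7.15% of all windows held. The 4 printed windows had a GC content of 60.0% for G6pdx, 74.7% for Me1, 56.7% for Taldo1 and 67.3% for Pgls.

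The next enzyme of the branch, Pgls, was lower. It had 754, 657 and 683 normalized counts in Nae1T-KO cells and 859.5, 899 and 934 in Nae1WT, with no overlap between the groups. The means were 698 in Nae1T-KO and 898 in Nae1WT. The fitted log2 change was -0.36 with a standard error of 0.08 (95% CI -0.55 to -0.18, limma adjusted p = 0.0179). Its call ended without Nae1T-KO replicate 2 (log2 fold change -0.32, limma adjusted p = 0.0609), without Nae1WT replicate 2 (-0.36, adjusted p = 0.0650) and without Nae1WT replicate 3 (-0.33, adjusted p = 0.0788), and the adjusted p ran between 0.00509 and 1 in all alternatives. Its same-sex differences were all negative, from -0.51 to -0.31. Pgls lies on chromosome 8 from 71592184 to 71596267, on the chromosome that also carries Nae1 (from 104511028). The reductase genes Nqo1 (from 107388225) and Gsr (from 33653238), described below, lie there too, and Nqo1 is nearer to Nae1 than Pgls is. Any effect of this linkage was not tested.

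Pgd had 4249, 3845 and 3397 normalized counts in Nae1T-KO cells and 4056, 3670 and 4235 in Nae1WT. The groups overlapped, with the highest and the lowest library both in Nae1T-KO. The log2 fold change was -0.06 (95% CI -0.26 to 0.14, limma adjusted p = 0.700), and it was 0.02 without Nae1T-KO replicate 3. Pgd lies on chromosome 4 from 149149991 to 149166705. The balance between both dehydrogenases can be read within a library, where scaling cancels. Per kilobase of exon, G6pdx stood at 0.849, 0.831 and 0.998 of the level of Pgd in Nae1T-KO and at 0.489, 0.538 and 0.460 in Nae1WT. Its ratio to Pgls was 2.54, 2.58 and 2.64 in Nae1T-KO cells and 1.22, 1.17 and 1.11 in Nae1WT. Neither ratio overlapped between the groups. The two-sided exact permutation test gave p = 0.1 for each, the smallest that 3 against 3 libraries allow. For both ratios this outcome was fixed by the levels. Every Nae1T-KO library was above every Nae1WT library in G6pdx and below every one in Pgls, so the ratio to Pgls restates the 2 calls. G6pdx was at least 3821 in Nae1T-KO and at most 2372 in Nae1WT. In proportion that gap exceeds the one between the highest and lowest Pgd library, at 4249 and 3397. The ratio to Pgd therefore restates the G6pdx call.

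In the non-oxidative branch Taldo1 was higher. It had 2303, 2108 and 2285 normalized counts in Nae1T-KO cells and 1843, 1816 and 1951 in Nae1WT, again without overlap. The means were 2232 ± 108 in Nae1T-KO and 1870 ± 71.3 in Nae1WT (SD, n = 3 each), which is a log2 change of 0.25 (95% CI 0.10 to 0.41, limma adjusted p = 0.0355), or 1.19-fold. Its direction was the same in each alternative, with log2 fold changes of 0.23 to 0.30. The call ended without Nae1T-KO replicate 1 (log2 fold change 0.23, limma adjusted p = 0.102), Nae1T-KO replicate 3 (0.24, adjusted p = 0.0573), Nae1WT replicate 1 (0.24, adjusted p = 0.0893), Nae1WT replicate 2 (0.23, adjusted p = 0.136), also without Nae1WT replicate 3 (0.29, adjusted p = 0.0737), or once sex entered the model (0.25, adjusted p = 0.0627), and the adjusted p ran between 0.0176 and 1 in all alternatives. Taldo1 lies on chromosome 7 from 141392160 to 141402976.

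Tkt was the most abundant member. It had 10835, 9542 and 9428 normalized counts in Nae1T-KO cells and 8876, 8418 and 9173 in Nae1WT. Every Nae1T-KO library was above every Nae1WT library, but the gap between the nearest libraries was small beside the spread within Nae1T-KO. The log2 fold change of 0.17 (95% CI 0.00286 to 0.336) did not pass after adjustment (limma, adjusted p = 0.166, and 0.0837 to 1 over the alternatives). Rpia had 1254, 1377 and 1384 normalized counts in Nae1T-KO cells and 1295, 1339 and 1318 in Nae1WT. All 3 Nae1WT values lay inside the range of the Nae1T-KO values. Its log2 fold change was 0.02 (95% CI -0.13 to 0.18, limma adjusted p = 0.878), and its sign changed without Nae1T-KO replicate 3 (-0.00398). Tkt lies on chromosome 14 from 30549131 to 30574724 and Rpia on chromosome 6 from 70765720 to 70792175.

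**Figure D2:**
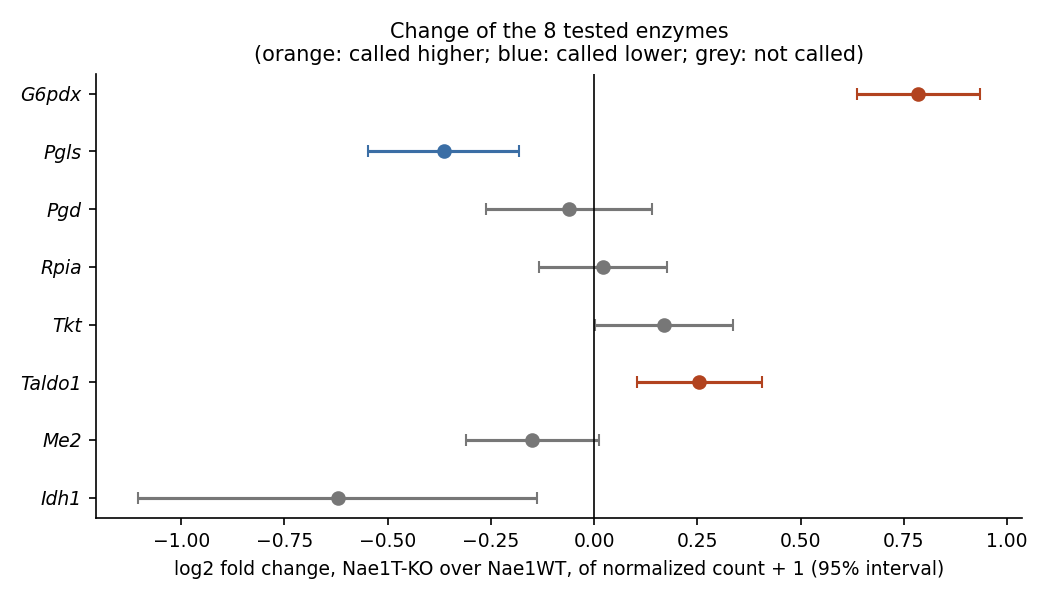
Log2 fold changes of Nae1T-KO over Nae1WT (horizontal axis, of normalized count + 1) with 95% CIs from limma for the 8 tested enzymes. G6pdx at 0.79 and Taldo1 at 0.25 are called higher and Pgls at -0.36 lower; Idh1 at -0.62 has the widest interval, -1.10 to -0.14, and is not called.

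Outside the pentose phosphate pathway no member passed. Me2 had 3324, 3082 and 2899 normalized counts in Nae1T-KO cells and 3530, 3252 and 3529 in Nae1WT. The highest Nae1T-KO library was above the lowest Nae1WT library. The log2 fold change was -0.15 (95% CI -0.31 to 0.01, limma adjusted p = 0.203). Idh1, which makes NADPH from isocitrate in the cytosol, was expressed at a far lower level. It had 143, 92.5 and 75.7 normalized counts in Nae1T-KO cells and 141, 155 and 169 in Nae1WT. Nae1T-KO replicates 2 and 3 were below every Nae1WT library, and Nae1T-KO replicate 1 was just above the lowest of them.

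The log2 fold change of Idh1 was -0.62 (95% CI -1.10 to -0.14, limma adjusted p = 0.0875). Its coefficient of variation was 33.8% in Nae1T-KO and 8.98% in Nae1WT, and between 75 and 222 reads stood behind each value. It passed the threshold without Nae1T-KO replicate 1 (log2 fold change -0.88, limma adjusted p = 0.0164) or once sex entered the model (-0.75, adjusted p = 0.0406), and the adjusted p ran between 0.0164 and 1 in all alternatives. Idh1 lies on chromosome 1 from 65158616 to 65186479, and Me2 on chromosome 18 from 73764954 to 73815438.

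Me1, the cytosolic malic enzyme, was close to the limit of detection. It had 16.8, 5.29 and 8.08 normalized counts in Nae1T-KO cells and 2.46, 8.36 and 3.05 in Nae1WT, from 15, 6 and 8 reads against 2, 8 and 4 reads. The groups overlapped, and Nae1T-KO replicate 1 was the highest library. A normalized count of at least 10 in at least 3 libraries was required for testing, which Me1 did not reach. With no filter its log2 fold change was 0.98 (95% CI -0.22 to 2.19, limma adjusted p = 0.305), so a difference was not detectable at this depth. Me1 lies on chromosome 9 from 86581363 to 86695914.

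Levels of different genes can be set side by side only per length, and were divided here by the kilobases of annotated exon (GENCODE M21). In Nae1T-KO the order was Tkt at 3083 ± 242 normalized counts per kilobase, Pgd at 1727 ± 192, Taldo1 at 1636 ± 79.0, G6pdx at 1532 ± 92.5, Me2 at 1176 ± 80.8, Rpia at 732 ± 40.1, Pgls at 593 ± 42.5, Idh1 at 41.9 ± 14.2 and Me1 at 2.78 ± 1.66 (SD, n = 3 each). In Nae1WT it was Tkt at 2737 ± 118, Pgd at 1798 ± 130, Taldo1 at 1371 ± 52.3, Me2 at 1303 ± 60.7, G6pdx at 888 ± 8.49, Pgls at 763 ± 31.7, Rpia at 720 ± 12.0, Idh1 at 62.6 ± 5.62 and Me1 at 1.28 ± 0.902 (SD, n = 3 each). G6pdx stood above Me2 in Nae1T-KO and below it in Nae1WT, in each case with no overlap between libraries. In Nae1T-KO, Pgd overlapped with Taldo1, and Taldo1 with G6pdx. In Nae1WT, Taldo1 overlapped with Me2, and Pgls with Rpia.

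The make-up of the pathway was compared within each library. Of the summed level per kilobase of the 6 pentose phosphate transcripts, G6pdx made up 16.4%, 16.0% and 17.0% in Nae1T-KO cells and 10.8%, 11.2% and 10.2% in Nae1WT cells. Pgls made up 6.46%, 6.21% and 6.45% in Nae1T-KO cells and 8.83%, 9.57% and 9.25% in Nae1WT. Pgd made up 19.3%, 19.3% and 17.0% in Nae1T-KO cells and 22.1%, 20.7% and 22.3% in Nae1WT. Taldo1 made up 17.0%, 17.2% and 18.6% in Nae1T-KO cells and 16.3%, 16.7% and 16.7% in Nae1WT. Each of these 4 shares kept the groups apart (exact permutation p = 0.1 each, two-sided, the smallest possible). The levels of G6pdx, Pgls and Taldo1 were already apart, so their shares are no separate support for those calls. Rpia made up 6.91%, 8.37% and 8.41% in Nae1T-KO cells and 8.57%, 9.17% and 8.40% in Nae1WT, with overlap (exact permutation p = 0.2). The share of Tkt overlapped too, at 33.1% ± 0.712 in Nae1T-KO and 33.1% ± 0.316 in Nae1WT (SD, n = 3 each). A share falls when another rises, so the lower share of Pgd is no sign of a lower level.

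**Figure D3:**
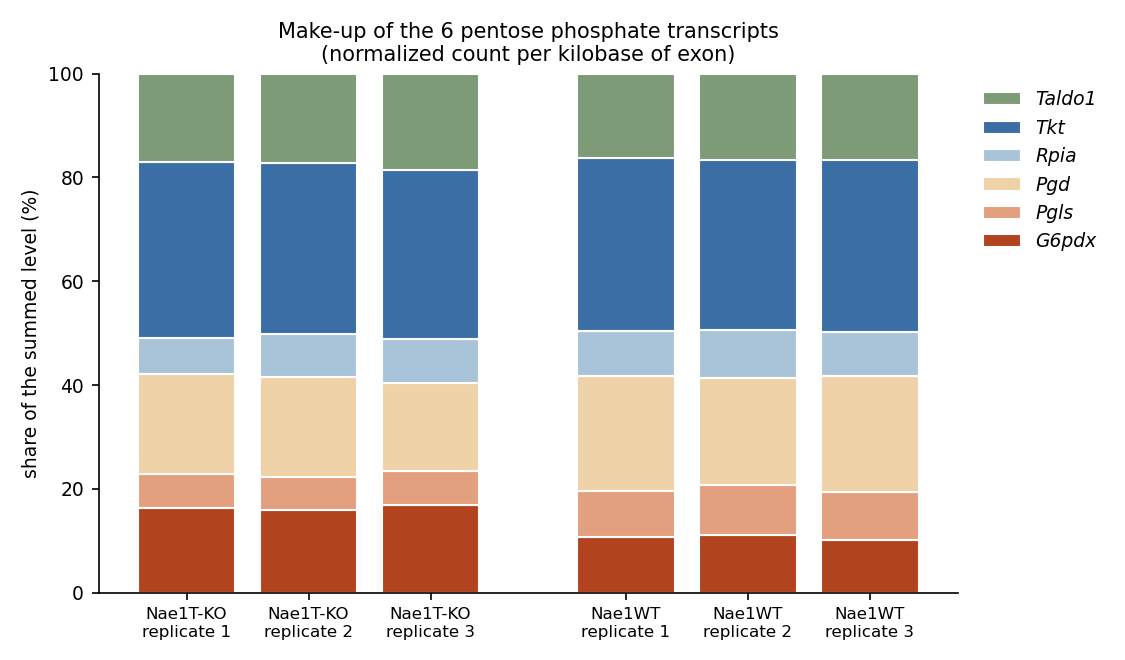
Share in percent (vertical axis) of each of 6 pentose phosphate transcripts in their summed normalized count per kilobase of exon, for 3 Nae1T-KO libraries on the left and 3 Nae1WT libraries on the right. The G6pdx segment at the base is 16.0% to 17.0% in Nae1T-KO and 10.2% to 11.2% in Nae1WT.

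Summed over the oxidative members, the level per kilobase was 4182, 3733 and 3641 in Nae1T-KO cells and 3453, 3309 and 3581 in Nae1WT. For the non-oxidative members it was 5736, 5259 and 5358 in Nae1T-KO cells and 4813, 4675 and 4997 in Nae1WT. In both sums each Nae1T-KO library was above each Nae1WT library. Within the oxidative sum only G6pdx had a higher mean in Nae1T-KO, at 1532 against 888 in Nae1WT. Pgd was at 1727 against 1798 and Pgls at 593 against 763, so the higher sum is no sign of a rise of the whole branch. Within the non-oxidative sum only Taldo1 was called, at 1636 in Nae1T-KO against 1371 in Nae1WT. Tkt, its largest part at 3083 against 2737, did not pass, and Rpia overlapped at 732 against 720. That sum restates the levels of its members.

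Of 12 other measured genes of the pathway (15 listed), 1 was higher, 1 was lower and 10 did not pass, near the 6.53% and 6.18% of all tested genes, with a median log2 fold change of 0.01. Rpe, which makes xylulose 5-phosphate from ribulose 5-phosphate, had 1032 ± 30.7 normalized counts in Nae1T-KO cells and 1422 ± 166 in Nae1WT (SD, n = 3 each), which is a log2 change of -0.46 (limma, adjusted p = 0.0102). Its span overlaps that of Kansl1l. Prpsap1, which encodes a protein associated with phosphoribosyl pyrophosphate synthetase, had 1305 ± 83.0 in Nae1T-KO and 1056 ± 31.7 in Nae1WT, which is a log2 change of 0.30 (limma, adjusted p = 0.0251). The Prpsap1 call ended when any library but Nae1T-KO replicate 3 was left out (0.27 to 0.33, limma adjusted p of 0.0626 to 0.0935). H6pd, the enzyme of the endoplasmic reticulum that runs the first steps there, had 462 ± 52.2 in Nae1T-KO and 374 ± 46.0 in Nae1WT and did not pass (0.30, adjusted p = 0.128). Tigar, a phosphatase known to divert glucose into the pathway and a p53 target, had 670 ± 66.2 in Nae1T-KO and 663 ± 61.1 in Nae1WT (log2 fold change 0.02, 95% CI -0.21 to 0.24, adjusted p = 0.941). The transketolase-like genes Tktl1 and Tktl2 had no row under these symbols in the deposited table, so they could not be analysed.

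Among other NADPH sources and the kinases that make NADP, limma called 0 of 9 tested genes (11 listed), with 2 below 0.05 before adjustment. Over all tested genes limma called 12.7%. The count for these 9 genes was also 0 by edgeR, DESeq2 and limma-voom on reads recovered from the table. Idh2, the mitochondrial counterpart of Idh1, had a log2 fold change of 0.15 (95% CI -0.06 to 0.37, adjusted p = 0.322). Nnt, the mitochondrial transhydrogenase, had -0.12 (-0.35 to 0.10, adjusted p = 0.456). Nadk, the cytosolic NAD kinase, had 3393, 3306 and 2928 normalized counts in Nae1T-KO cells and 3609, 3717 and 3725 in Nae1WT. Its groups did not overlap, and the log2 fold change of -0.20 did not pass (adjusted p = 0.0919). Me3 had no row under this symbol in the deposited table, so it could not be analysed.

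Reductases that spend NADPH held the largest changes of the surrounding groups. Of 11 tested (12 listed), 5 rose, 0 fell and 6 did not pass, where 6.53% of all tested genes rose and 6.18% fell. The median log2 fold change of the 11 was 0.28. Nqo1, a quinone reductase, had 173 ± 12.2 normalized counts in Nae1T-KO cells and 20.7 ± 5.72 in Nae1WT (log2 fold change 3.03, limma adjusted p = 0.000105). Txnrd1, the cytosolic thioredoxin reductase, had 12038, 12362 and 11033 in Nae1T-KO cells and 4469, 4596 and 4943 in Nae1WT (1.34). Gsr, glutathione reductase, had 3224, 3166 and 3382 in Nae1T-KO cells and 1547, 1604 and 1555 in Nae1WT (1.05). These values exceed the 0.79 of G6pdx, and the differences between genes were not tested. Blvrb, biliverdin reductase, and Por, cytochrome P450 reductase, also passed, and are named after their values were seen. Both Txnrd1 and Gsr overlap other measured genes by their spans.

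Of 16 users of NADPH in synthesis, 0 rose, 2 fell and 14 did not pass, with a median log2 fold change of -0.18. Of all tested genes 12.7% were called, 6.53% higher and 6.18% lower, so this count is near the share of all genes. Dhcr7, of the last step of cholesterol synthesis, had 398 ± 52.3 normalized counts in Nae1T-KO cells and 589 ± 109 in Nae1WT (SD, n = 3 each, log2 fold change -0.56, limma adjusted p = 0.0300). The Dhcr7 call ended under total-count scaling (-0.51, limma adjusted p = 0.0546) and when Nae1T-KO replicate 2 (-0.57, 0.0754), Nae1T-KO replicate 3 (-0.45, 0.0685), Nae1WT replicate 1 (-0.42, 0.0806) or Nae1WT replicate 3 (-0.58, 0.0708) was left out. Of 10 tested genes of upper glycolysis (11 listed), which shares glucose 6-phosphate with the pathway, 3 rose, 0 fell and 7 did not pass. The share of all tested genes that rose was 6.53%, and the median of the 10 was 0.18. Aldoa, an aldolase, had a log2 fold change of 0.45 (adjusted p = 0.00453), the glucose transporter gene Slc2a1 one of 0.42 (adjusted p = 0.0450), and Gpi1, which takes glucose 6-phosphate into glycolysis, one of 0.31 (adjusted p = 0.0273). The Slc2a1 call ended when Nae1T-KO replicate 1 (0.29, limma adjusted p = 0.104), Nae1T-KO replicate 2 (0.46, 0.0900), Nae1WT replicate 1 (0.40, 0.116) or Nae1WT replicate 2 (0.36, 0.152) was left out, and with sex in the model (0.33, 0.0506). The Gpi1 call ended when the same libraries were left out, in that order with limma adjusted p of 0.0916, 0.0587, 0.0657 and 0.119 (log2 fold changes of 0.26 to 0.32). Of 16 genes that supply malate, citrate and isocitrate, 0 rose, 2 fell and 14 did not pass, and the median was -0.02. This count is also near the 12.7% of all tested genes that were called. Mdh1, the cytosolic malate dehydrogenase, had 4117 ± 225 in Nae1T-KO and 5465 ± 345 in Nae1WT (-0.41, adjusted p = 0.00602), and the malate carrier gene Slc25a11 had -0.29 (adjusted p = 0.0444). The Slc25a11 call ended in 12 of 21 alternatives, among them no filter (limma adjusted p = 0.0511), total-count scaling (0.0714), sex in the model (0.0664), and each library left out but Nae1T-KO replicate 1 (0.0602 to 0.139).

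**Figure D4:**
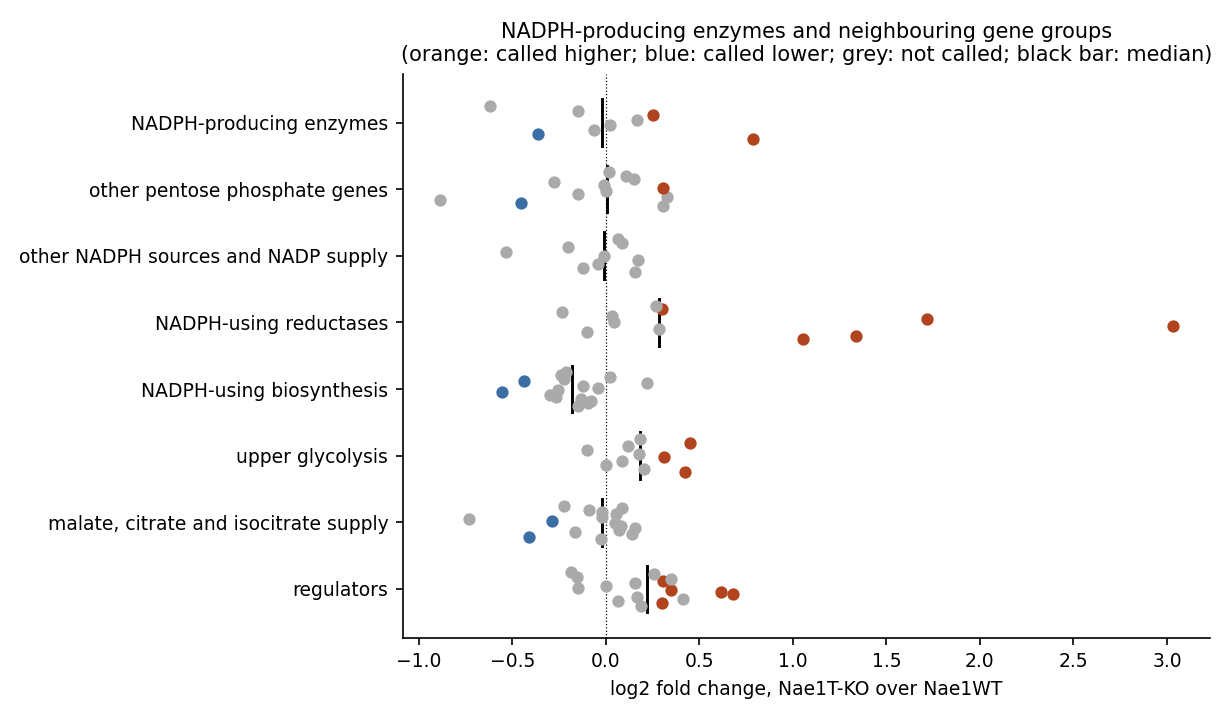
Log2 fold changes of Nae1T-KO over Nae1WT (horizontal axis) for each tested gene of the 9 enzymes and of 7 neighbouring groups, with the median of each group as a bar. The NADPH-using reductases reach 3.03, while the NADPH-producing enzymes span -0.62 to 0.79 around a median of -0.02.

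Of 16 regulators, 5 rose, 0 fell and 11 did not pass, where 6.53% of all tested genes rose and 6.18% fell. The median log2 fold change of the 16 was 0.22. DESeq2 called 8 of them. The small MAF genes, whose proteins pair with NRF2 on DNA, were among them: Mafg at a log2 fold change of 0.62 (limma, adjusted p = 0.000721), Maff at 0.68 (adjusted p = 0.0119) and Mafk at 0.35 (adjusted p = 0.0138). Keap1, the cullin 3 adaptor that targets NRF2, had 1684, 1682 and 1682 normalized counts in Nae1T-KO cells and 1376, 1273 and 1450 in Nae1WT (0.30, adjusted p = 0.0210), and Trp53, which encodes the tumour suppressor p53, had 3158 ± 49.9 in Nae1T-KO and 2553 ± 116 in Nae1WT (0.31, adjusted p = 0.0126). The Keap1 call ended when Nae1T-KO replicate 1 (0.30, limma adjusted p = 0.0551), Nae1T-KO replicate 2 (0.30, 0.0556) or Nae1WT replicate 2 (0.25, 0.0986) was left out. The Trp53 call ended without Nae1WT replicate 2 (0.28, limma adjusted p = 0.0662) or Nae1WT replicate 3 (0.30, 0.0591), and the Mafk call without Nae1WT replicate 2 (0.34, 0.0548). Nfe2l2, which encodes NRF2, had 724 ± 11.5 in Nae1T-KO and 636 ± 26.9 in Nae1WT, with a log2 fold change of 0.19 that did not pass (adjusted p = 0.139). Myc, a driver of metabolic genes after activation, had 7253 ± 268 in Nae1T-KO and 6516 ± 217 in Nae1WT (0.15, adjusted p = 0.141).

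The genes whose log2 levels most resembled the mean standardised profile of the 3 called members over the 6 libraries were Ccdc69 (Pearson's r = 0.991), Phf10 (0.986), Sirt4 (0.985), Clp1 (0.983) and Ppp5c (0.982). None of these 5 was itself called, with log2 fold changes of 0.07 to 0.27. The profile averages members of both directions, and the libraries of each group share a genotype, so these values are only a description.

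**Figure D5:**
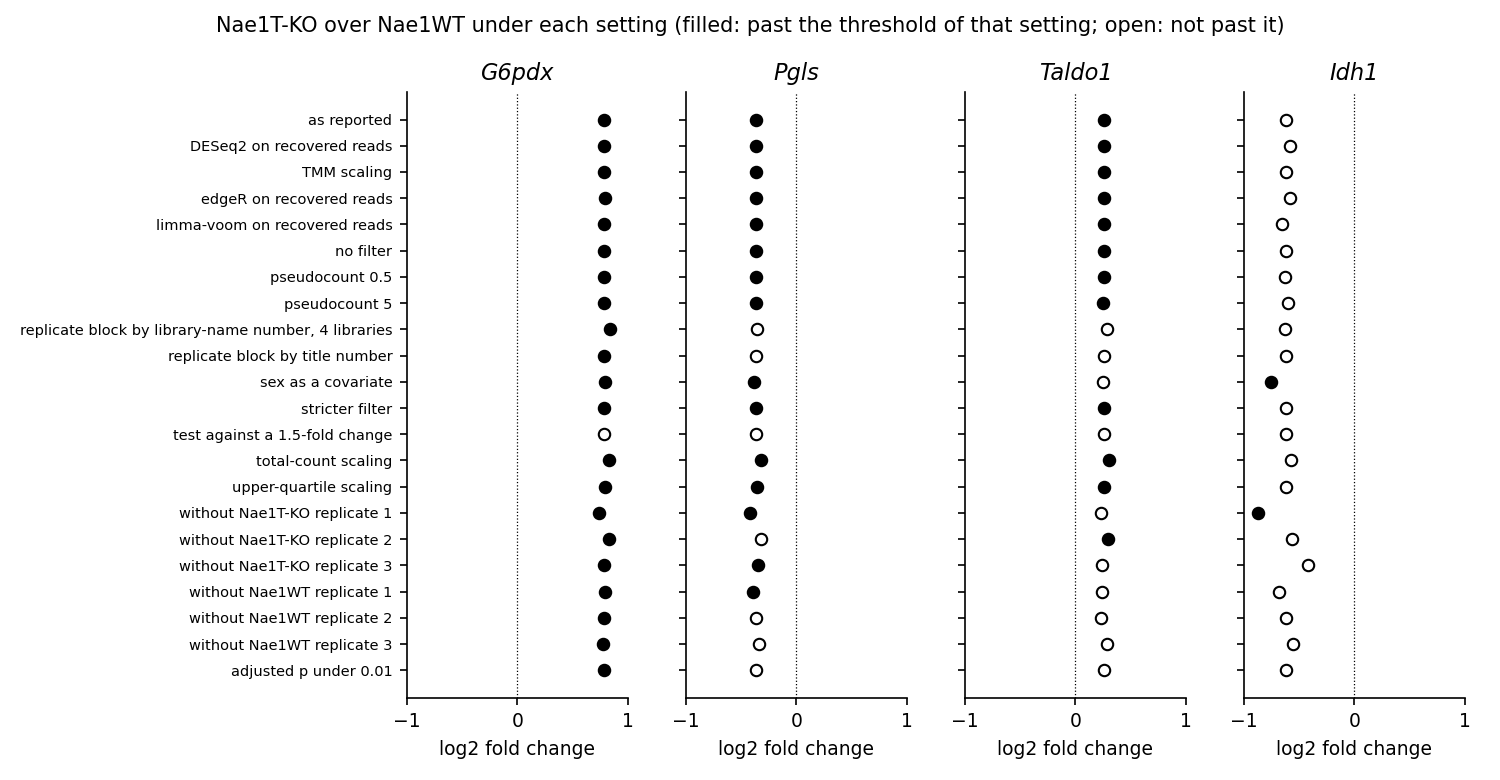
Log2 fold changes of Nae1T-KO over Nae1WT (horizontal axis) for G6pdx, Pgls, Taldo1 and Idh1 as reported and under each alternative (vertical axis), filled where past the threshold of that setting. G6pdx stays between 0.74 and 0.83, and Taldo1 between 0.23 and 0.30 with open points for 10 alternatives.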

How the data were processed

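RNA sequencing was done on 6 libraries, 3 per genotype. Per the labels' protocols, polyadenylated RNA was selected and primed with random hexamers. The tools in the submitters' processing notes are bcl2fastq, HISAT2 and DESeq2 1.42.0, with build mm10. Which read counter, annotation and strand setting were used is not given in the sources used here. The authors deposited a signal, counts divided by 1 size factor per library, so the design assigned limma rather than a count test. In every column each value was a whole multiple of 1 step (100% of values within 0.001 of a read), which recovered the reads. For Nae1T-KO replicate 3 this is less sure from the values alone, since its step is near 1.

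Genes with a normalized count of at least 10 in at least 3 libraries entered limma 3.58.1 (R 4.3.3, mean-variance trend, robust) as log2(normalized count + 1). Fold changes on this scale understate low genes. The fit was tested on simulated data. Alternatives tried were scaling by TMM, upper quartile or total count, no filter or a minimum of 5 CPM, pseudocounts of 0.5 and 5, each library left out, replicate blocks, count tests on the recovered reads (DESeq2 1.42.0, limma-voom, edgeR 4.0.16), a threshold of 0.01, a test against 1.5-fold, and sex as a covariate. Same-sex differences and the sex by genotype test were added after seeing the data. Members and gene lists were chosen with earlier results of these data known. The rule named all 9 members, 11 further genes regardless of their test, up to 3 called genes per list, ranked by size of change among those averaging 5 CPM or more, and 5 genes of like profile. Coordinates and promoters are from RefSeq GRCm38.p6 and exon lengths from GENCODE M21. A gene that the rule names is not reported here.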

Additional observations from a re-analysis of the deposited data

How the results depend on the processing

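The log2 fold changes of the 8 tested members kept their sign in each alternative, with the exception of Pgd, which ran from -0.139 to 0.0223 with a library left out (positive without Nae1T-KO replicate 3), and Rpia, which ran from -0.00398 to 0.0675 (negative without Nae1T-KO replicate 3) and was -0.0120 with the replicate block by library-name number on 4 libraries. Tigar ran from -0.0371 to 0.0987 with a library left out, being -0.0165 or -0.0371 when Nae1T-KO replicate 1 or 2 was dropped and -0.0156 or -0.0289 when Nae1WT replicate 1 or 2 was, and was -0.0678 with the block on 4 libraries and -0.0641 with sex as a covariate. Called members numbered 3 in the fit as reported, 1 at an adjusted p under 0.01, 0 against a 1.5-fold change, 1 to 3 with a library left out and 1 with either replicate block. With sex as a covariate the 3 were G6pdx, Pgls and Idh1. All genes called numbered 1757 as reported, 585 at 0.01, 42 against 1.5-fold, 844 to 1790 with a library left out, 968 with the block by title number and 253 with the block on 4 libraries. Called genes of the 7 other lists numbered 19, 8, 4, 11 to 19, 12 and 6 in the same settings. Same-numbered libraries had correlations of deviations from the group means of -0.27 to -0.13, and 0 of 6 libraries correlated best with its own number. Deviations of 3 libraries from their own mean depend on each other, so these values cannot decide whether title numbers pair the libraries. With the block by title number the calls of Pgls (limma adjusted p = 0.0623) and Taldo1 (0.0983) ended. The median log2 fold change of the members, -0.02, was positive with no filter (0.0212), under total-count scaling (0.0272), without Nae1T-KO replicate 3 (0.00913) and without Nae1WT replicate 3 (0.00252). Among the fits with a library left out, 844 genes were called without Nae1WT replicate 2, 954 without Nae1WT replicate 3 and 1034 without Nae1T-KO replicate 2, and 1 member was called without Nae1WT replicate 2 or Nae1WT replicate 3. The share of higher calls moved under total-count scaling, where 1176 genes were higher and 622 lower against 903 and 854 as reported. Depth limited Me1, at 2 to 15 reads.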
